A study of Danio rerio with 6 samples.

Results

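The granulin precursor genes of zebrafish were followed through brain macrophages of 3 csf1r genotypes. They were found by gene symbol, and all 4 sought, grn1 (ENSDARG00000089362), grn2 (ENSDARG00000088641), grna (ENSDARG00000004954) and grnb (ENSDARG00000025081), were among the 21860 genes of the deposited table, each on 1 row. The antisense transcript grnas (ENSDARG00000091885) has a row of its own and is given beside grna only. All 4 genes had reads in each of the 6 libraries, the lowest being 56 reads of grn2 in control replicate 1, and all 4 were among the 21316 genes that passed the filter on low values.

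The cells carried the mpeg1-GFP reporter, whose mpeg1 promoter is active in macrophages in general and not in microglia alone, and were sorted for GFP from brains of fish aged 9 to 12 months of strain TLF x AB. Control fish were wild type, csf1ra-/- fish lacked intact csf1ra, and csf1ra-/-;b+/- fish (compound mutants from here on) carried in addition 1 mutant and 1 intact copy of csf1rb, with 2 libraries in each group. A second label on the compound mutants names both receptors as lost, and here their genotype label was used. How many fish went into a library, and whether replicates came from separate fish, is not stated in the labels, so each p-value below measures only the spread between these libraries, which may be technical.

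Granulins are small cysteine-rich modules that are strung together in a secreted precursor, progranulin, in mammals. The precursor is taken to lysosomes by the receptor sortilin or in the company of prosaposin, and is cut into single granulins by lysosomal cathepsins or, outside the cell, by elastases and matrix metalloproteinases. In humans, loss of progranulin leads to frontotemporal dementia or, when both copies are lost, to a lysosomal storage disease, and in the mammalian brain microglia are a main source of the protein. In zebrafish, grna and grnb encode long precursors with many modules, like mammalian progranulin, whereas grn1 and grn2 encode short proteins with far fewer.

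Total reads per library ranged from 4241988 in control replicate 1 to 15011963 in compound mutant replicate 1, and the compound mutant libraries were the deepest. Values below are signal, headed CPM by the authors, which is reads divided by an effective library size; 1 read was worth 0.0809 to 0.157 units. The mutated receptor gene csf1ra was read in all of them, from 37.7 to 67.9 among controls, 24.3 to 42.6 in csf1ra-/- fish and 7.73 to 18.5 in the compound mutants, so that its level does not tell csf1ra-/- from control. All 22 microglia and macrophage markers looked for had reads in each library. Their summed signal was 23200 and 45000 among controls, 23800 and 14900 in csf1ra-/- fish and 25300 and 24400 in the compound mutants.

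The short genes were low in control cells and high in compound mutants, and lay between these in csf1ra-/- cells. The signal of grn1 was 31.1 and 25.6 in the control libraries, 152 and 107 in csf1ra-/- fish and 373 and 659 in the compound mutants. Neither of the mutant groups overlapped with control or with the other, so that the 6 libraries fell into the order of the genotypes. The same order without overlap was found for 885 of all genes tested (4.15%). In reads, the 2 control libraries held 229 and 207 fragments of grn1 and the 2 compound mutant libraries 4608 and 7154, so in compound mutants counting error is small beside the spread between libraries.

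The second short gene, grn2, had a signal of 7.62 and 12.1 in control cells, 30.6 and 19.3 in those of csf1ra-/- fish and 90.1 and 164 in those of compound mutants. The groups stood in the same order as for grn1, again with no overlap. Within each mutant group the library with more grn1 also had more grn2, which was not so in control. In signal, grn1 was 4.09 and 2.11 times grn2 in control, 4.97 and 5.56 times in csf1ra-/- cells and 4.14 and 4.01 times in compound mutants, a ratio that is not corrected for transcript length. Reads were 50 nucleotides long and the sources used here do not say how they were counted, so the assignment of any reads that match both genes is uncertain.

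The long genes showed no such order. The signal of grna, the granulin gene with the most reads in 5 of 6 libraries, was 451 and 834 among controls, 747 and 888 in csf1ra-/- fish and 730 and 324 in the compound mutants. Control and compound mutants overlapped, the lowest value being that of compound mutant replicate 2, the library that was highest in grn1 and grn2. Both compound mutant libraries lay below both csf1ra-/- libraries, as they did for 28.9% of genes. The other long gene, grnb, had a signal of 20.7 and 14.6 in control cells, 15.9 and 18.5 in those of csf1ra-/- fish and 39.7 and 15.1 in those of compound mutants. Here all pairs of groups overlapped, and only compound mutant replicate 1 stood apart, above the other 5 libraries.

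**Figure D1:**
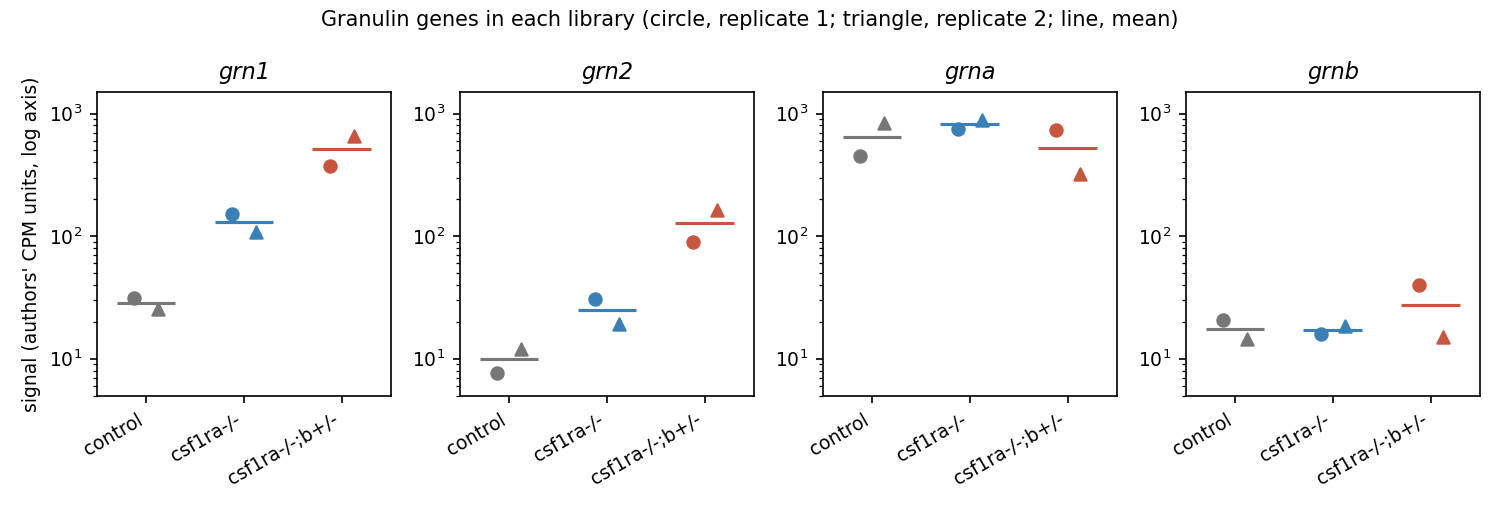
Signal of grn1, grn2, grna and grnb in each library, in the authors' CPM units on a log axis, with a circle for replicate 1, a triangle for replicate 2 and a line for the mean of the 2 libraries of a genotype. The short genes step up from control (means 28.4 and 9.86) through csf1ra-/- to compound mutants (516 and 127), while grna and grnb have overlapping values in control and compound mutants.

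In compound mutants against control, the short granulin genes rose and the long ones did not pass the test. The mean signal of grn1 was 516 ± 202 (SD, n = 2) against 28.4 ± 3.95, which is 18.2 times as high, with a log2 difference of 4.09 ± 0.53 (SE; 95% confidence interval 2.91 to 5.26) and a limma adjusted p of 0.0141. The mean of grn2 was 127 ± 52.3 against 9.86 ± 3.17, 12.9 times as high, with a log2 difference of 3.53 ± 0.63 (2.14 to 4.92) and a limma adjusted p of 0.0387. Thus 2 of 4 members passed, both higher, where 0.793% of all genes tested passed as higher. By log2 difference grn1 ranked 109 and grn2 239 of 21316 genes, of which 46.4% were above 0. Both genes had no overlap between the groups, as did 25.3% of all genes in the upward direction.

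The calls rest on few libraries. Leaving out 1 library at a time kept the log2 difference of grn1 between 3.68 and 4.50 and that of grn2 between 3.10 and 3.96. The limma adjusted p of grn1 was then above 0.05 without control replicate 1 (0.0812), csf1ra-/- replicate 1 (0.0887), csf1ra-/- replicate 2 (0.106) or compound mutant replicate 2 (0.0871), and that of grn2 was above 0.05 without any 1 of the 6, from 0.0606 to 0.202. The differences also depend on scaling. The effective library size was 1.733 and 1.034 times the total reads in control, and 0.823 and 0.802 times in compound mutants. On total reads grn1 was at 3.38, its lowest in 14 alternatives, and passed (limma adjusted p of 0.0122). On total reads grn2 was at 2.85 and did not pass (0.0522).

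For grna the log2 difference between compound mutants and control was -0.33 ± 0.57 (SE, n = 2 per group), with a 95% interval of -1.59 to 0.93 and a limma adjusted p of 0.732. On total reads it was -1.05 ± 0.42, with a limma adjusted p of 0.141, where the median of all genes was -0.70. Its sign turned to 0.11 without control replicate 2 and to 0.25 without compound mutant replicate 2. For grnb it was 0.48 ± 0.69 (-1.06 to 2.01), with a limma adjusted p of 0.681, and it turned to -0.21 on total reads and to -0.19 without compound mutant replicate 1. The intervals of the long genes exclude a rise of the size fitted for grn1 or grn2. The difference in response between short and long genes was not itself tested. Over the 4 members the median log2 difference was 2.00, beside -0.16 over all genes tested, and this median falls in the gap between the short and the long genes.

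In csf1ra-/- against control, no granulin gene passed, and neither did any other gene (0% by limma, with 10.5% at an unadjusted p under 0.05). The mean signal of grn1 was 130 ± 31.7 (SD, n = 2) against 28.4 ± 3.95, 4.57 times as high, with a log2 difference of 2.14 ± 0.53 (SE; 0.96 to 3.32), an unadjusted limma p of 0.00224 and an adjusted p of 0.310. By unadjusted p it ranked 140 of 21316 genes. On the recovered reads, DESeq2 gave it a log2 difference of 2.00 with an adjusted p of 0.0258, where 1.29% of the genes given an adjusted p passed as higher. On the same reads edgeR did not call it (2.01, adjusted p of 0.438). For grn2 the difference was 1.25 ± 0.63 (-0.14 to 2.65; limma adjusted p of 0.523), although both csf1ra-/- libraries lay above both controls. Such separation upward was found for 18.6% of genes in this comparison. For grna the difference was 0.41 ± 0.57 and for grnb -0.02 ± 0.69, with limma adjusted p of 0.849 and 0.997.

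In compound mutants against csf1ra-/-, which differ by label in 1 csf1rb copy, grn1 was 3.98 and grn2 5.09 times as high by mean signal. The log2 differences were 1.95 ± 0.53 (SE, n = 2 per group; 0.77 to 3.12) and 2.28 ± 0.63 (0.88 to 3.67), each with a limma adjusted p of 0.260, and neither passed, where 0.0235% of all genes did. DESeq2 on the recovered reads called both, at adjusted p of 0.0138 for grn1 and 0.0114 for grn2, where 2.72% of the genes given an adjusted p passed as higher. On the same reads edgeR called neither, at adjusted p of 0.190 and 0.193. Neither group overlapped with the other in these genes, which held upward for 20.0% of all genes. For grna the difference was -0.74 ± 0.57 (-2.00 to 0.52; limma adjusted p of 0.576) and for grnb 0.49 ± 0.69 (0.761). The comparisons share libraries, compound mutants here and controls above, and are therefore not independent of each other.

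**Figure D2:**
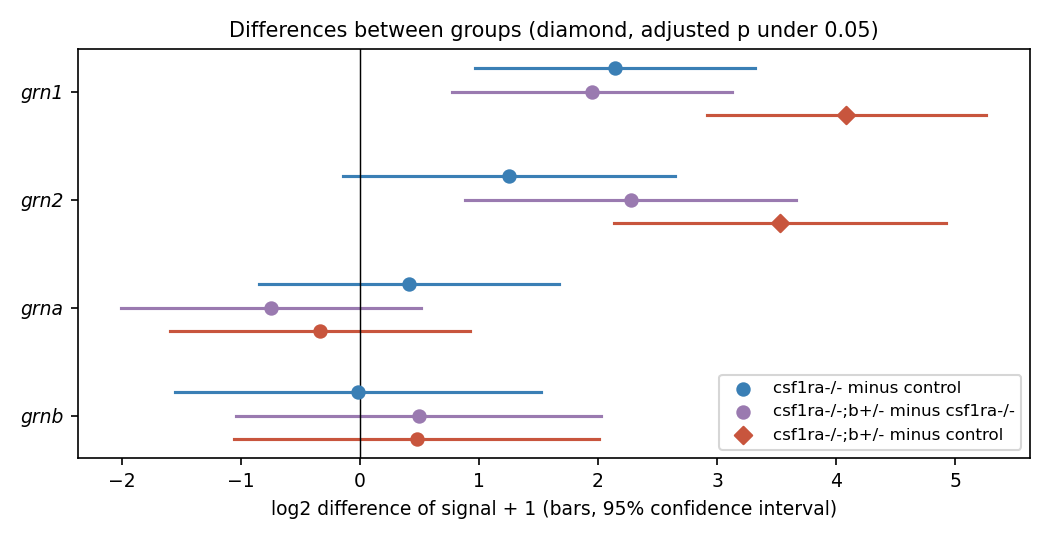
Log2 difference of signal + 1 for each granulin gene (rows) in the 3 comparisons (colors), with 95% confidence intervals of the limma fit as bars and a diamond where the adjusted p over all genes was under 0.05. The diamonds are grn1 (4.09) and grn2 (3.53) in compound mutants against control, and all intervals of grna and grnb include 0.

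In the authors' deposited table, grn1 was higher in csf1ra-/- than in control, at a log2 fold change of 2.19 and a false discovery rate of 0.0283. In the authors' deposited table it was also higher in compound mutants than in control (4.18, 1.99e-08) and than in csf1ra-/- (1.99, 0.0196). In the authors' deposited table, grn2 passed 0.05 in compound mutants against control (3.69, 5.95e-05) and against csf1ra-/- (2.35, 0.0212), and not in csf1ra-/- against control (1.34, 0.443). Over all 21860 genes of the authors' deposited table, the share under 0.05 and higher was 0.618% in csf1ra-/- against control, 6.50% in compound mutants against control and 1.99% in compound mutants against csf1ra-/-. The authors' deposited table gives grna and grnb false discovery rates from 0.585 to 0.997 in the 3 comparisons.

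The makeup of granulin reads thus differed between the genotypes. Of the summed signal of the 4 genes, the short genes made up 7.60% and 4.25% among controls, 19.3% and 12.2% in csf1ra-/- fish and 37.6% and 70.8% in the compound mutants. The 3 genotypes did not overlap in this share, and compound mutant replicate 2 was the single library in which short genes outweighed long ones. These are shares of reads, and a long transcript yields more reads per molecule than a short one, so they are not shares of molecules. Transcript lengths were not used here. A ratio within a library does not depend on how libraries were scaled, and the log2 ratio of short to long signal was -4.05 ± 0.63 (SD, n = 2) in control, -2.45 ± 0.55 in csf1ra-/- fish and 0.27 ± 1.42 in compound mutants. No p-value is given for this ratio, which combines chosen members, and 2 libraries against 2 cannot give an exact permutation p below 0.33.

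**Figure D3:**
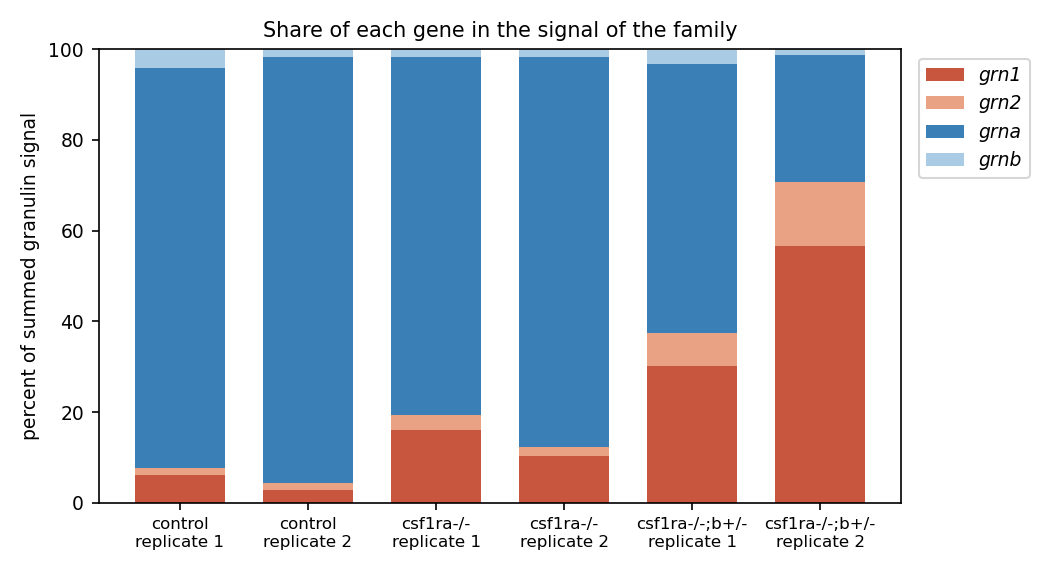
Percent of the summed signal of the 4 granulin genes taken by each gene, in each of the 6 libraries. The share of grn1 and grn2 together runs from 4.25% in control replicate 2 to 70.8% in compound mutant replicate 2, and grna takes most of the remainder.

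Summed over the family, the signal was 510 and 886 in control cells, 946 and 1034 in those of csf1ra-/- fish and 1233 and 1162 in those of compound mutants. Its highest value was a smaller multiple of its lowest than for grn1, which ran from 25.6 to 659, with grna the main part of it in every library except compound mutant replicate 2. In that library grn1 took 56.7% and grna 27.9%.

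Sorted cells can differ in how many of each kind they hold, and in bulk RNA fewer cells of a type and less RNA per cell cannot be told apart. Set against mpeg1.1, the endogenous gene behind the reporter, grn1 stood at 0.0418 and 0.0237 units per unit of mpeg1.1 among controls, 0.236 and 0.174 in csf1ra-/- fish and 0.206 and 0.175 in the compound mutants. By this ratio the mutant groups overlapped with each other and lay above control, whereas by signal they did not overlap. The signal of mpeg1.1 itself was 745 and 1080 among controls, 644 and 618 in csf1ra-/- fish and 1807 and 3757 in the compound mutants. Set against ptprc, the leukocyte surface phosphatase CD45, grn1 stood at 0.196 and 0.0700 in control cells, 0.512 and 0.259 in those of csf1ra-/- fish and 0.698 and 1.15 in those of compound mutants, with no overlap. Against lcp1 the mutant groups overlapped again, at 0.505 and 0.185 in csf1ra-/- fish and 0.190 and 0.360 in compound mutants, above 0.116 and 0.041 in control. Against spi1b they did not, at 0.303 and 0.208 beside 0.312 and 0.536. Against csf1rb the ratios were 0.106 and 0.137 beside 1.13 and 3.81. But csf1rb is itself mutated in compound mutants, with a signal of 1432 and 783 in csf1ra-/- fish and 329 and 173 in compound mutants. That ratio would thus be higher in compound mutants even at an equal signal of grn1, and it is no reference for grn1.

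The antisense transcript grnas had a signal of 13.2 and 2.72 among controls, 5.26 and 5.49 in csf1ra-/- fish and 9.55 and 8.93 in the compound mutants, and its log2 difference between compound mutants and control was 0.49 ± 0.88 (SE, n = 2 per group; limma adjusted p of 0.745). In the RefSeq annotation of assembly GRCz12tu its gene lies within the span of grna. The counting is not stated to use strand, so reads of grnas and of overlapping grna exons cannot be told apart. Its signal was a small fraction of that of grna in every library.

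In that annotation grn1 and grn2, listed there as grna.1 and grna.2, are neighbors, and grna and grnb each lie on a different chromosome from them. With the files' assembly, GRCz10, being another one, the annotation was used for gene order only. The gene before the pair, clxn, had a signal of 0.272 and 0 in control cells, 3.39 and 0.470 in those of csf1ra-/- fish and 7.85 and 6.45 in those of compound mutants, with a log2 difference of 2.85 between compound mutants and control (limma adjusted p of 0.0889). After the pair came cdk6, a cyclin-dependent kinase (1.08, limma adjusted p of 0.369), and fam133b (1.07, 0.220). The next gene, hepacam2, which encodes an adhesion protein of the immunoglobulin family, had a signal of 40.3 and 41.6 among controls, 169 and 130 in csf1ra-/- fish and 570 and 979 in the compound mutants. Its log2 difference was 4.16 with a limma adjusted p of 0.0113, close in value to that of grn1, and the 2 genes between grn2 and hepacam2, cdk6 and fam133b, did not pass. The libraries of clxn and fam133b also stood in the order of the genotypes with no overlap, as did those of hepacam2 and of 4.15% of all genes tested. Those of cdk6 overlapped, as did those of rbm48 and illr4, the genes before clxn. For clxn the gap between control and csf1ra-/- lay between 0.272 in control replicate 1 and 0.470 in csf1ra-/- replicate 2. In these libraries 1 read was worth 0.136 and 0.157, so this separation rests on a few reads. These neighbors were singled out after their values were seen.

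**Figure D4:**
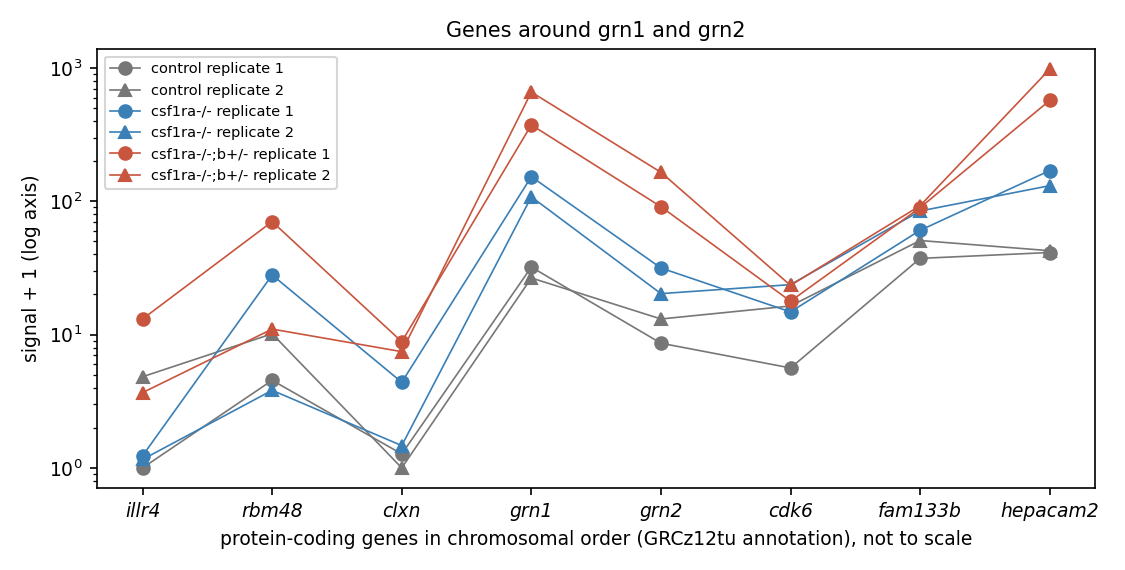
Signal + 1 on a log axis for the 8 protein-coding genes around grn1 and grn2 in chromosomal order, not to scale, with 1 line per library colored by genotype. The 3 genotypes do not overlap at clxn, grn1, grn2, fam133b and hepacam2, an order without overlap found for 4.15% of all genes tested. They overlap at illr4, rbm48 and cdk6. At clxn the separation of control from csf1ra-/- rests on a few reads. The log2 difference between compound mutants and control is 4.09 at grn1 and 4.16 at hepacam2 beside 1.07 at fam133b.

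Likeness of pattern was measured as Pearson's r of log2(signal + 1) over the 6 libraries, among 4344 other genes that had a symbol other than a clone name and a mean signal of at least 20. It is a description over 6 points that share genotype and depth, so a high value is reached by many genes. The genes most like grn1 were stat1b, a transcription factor of interferon signaling (0.998), id2a, an inhibitor of helix-loop-helix factors (0.996), the chemokine gene cxcl11.7 (0.996), tmem30ab, which encodes a subunit of lipid flippases (0.994), and hepacam2 (0.994). The signal of stat1b was 28.8 and 26.3 in control cells, 108 and 78.9 in those of csf1ra-/- fish and 259 and 471 in those of compound mutants, which is the same order of libraries as for grn1. Those most like grn2 were ier3ip1 (0.997), stmn1b, a microtubule regulator (0.996), the cytokine receptor gene il21r.1 (0.995), gnl3l (0.992) and the chemokine gene cxcl11.5 (0.990). Between grn1 and grn2 the value was 0.968.

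The long genes had other company. The genes most like grna were tbc1d1, a regulator of Rab proteins (0.995), the neurotrophin receptor gene ngfrb (0.992), trmt12 (0.991), paqr3a (0.978) and kdm4b, a histone demethylase (0.976). Several of these are low in control replicate 1 and in compound mutant replicate 2, such as tbc1d1 at 13.3 and 8.20 beside 32.6 to 46.2 in the other 4 libraries. Those most like grnb were tiparp (0.980), epsti1 (0.964), maff (0.941), elf2a (0.937) and safb (0.927), with tiparp at 74.7 in compound mutant replicate 1 and from 9.26 to 20.0 in the others. Across the libraries grna had an r of 0.161 with grnb, -0.365 with grn1 and -0.396 with grn2, values that over 6 libraries are given as a description.

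Genes for receptors and trafficking partners of progranulin had 0 of 18 rows past the test in any of the 3 comparisons. Of all 21316 genes tested, 234 passed in compound mutants against control, 5 between the mutants and 0 in csf1ra-/- against control. A count of 0 of 18 is near these shares. In compound mutants against control the 18 rows had a median log2 difference of -0.51 beside -0.16 over all genes. Of them 7 were above and 11 below 0. The smallest p-values were those of epha2a, an ephrin receptor reported to bind progranulin in mammals (-2.21, limma adjusted p of 0.0880), and of lrp1ba, lrp1bb and lrp1aa, relatives of a mammalian endocytic receptor, at -2.97, -2.63 and -2.26 (limma adjusted p of 0.0973, 0.125 and 0.135). These 4 rows had little signal, at most 30.6 in any library. A second row named lrp1ba stood at -1.54 (limma adjusted p of 0.344), and its control and compound mutant values overlapped. The main partners were named after their values were seen. The prosaposin gene psap had a signal of 565 and 922 among controls, 744 and 650 in csf1ra-/- fish and 936 and 973 in the compound mutants (0.40, limma adjusted p of 0.620). The sortilin gene sort1b stood at 50.6 and 37.8, 135 and 90.3, and 77.1 and 55.1 with the groups in that order (0.56, limma adjusted p of 0.516), and its copy sort1a had a signal from 1.23 to 14.6.

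Among proteases that can cut progranulin, 1 of 20 rows rose in compound mutants against control and 0 fell. Of all genes tested, 0.793% passed as higher. No row was found for slpi or wfdc2, the inhibitor genes sought, so no inhibitor was tested. The list's median log2 difference was 0.81 beside -0.16 over all genes. The gene that rose was ctss2.1, a cathepsin S, with a signal of 64.1 and 112 in control cells, 166 and 171 in those of csf1ra-/- fish and 468 and 664 in those of compound mutants (log2 difference 2.71 ± 0.51 SE, n = 2 per group; limma adjusted p of 0.0443). Its 3 groups did not overlap and stood in the order of the genotypes, as for the short granulins and 4.15% of all genes. In csf1ra-/- against control and in compound mutants against csf1ra-/-, 0 of 20 passed, as did 0% and 0.0235% of all genes.

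Lysosomal hydrolases and membrane proteins had 0 of 20 past the test in each comparison. Of all genes, 0.793% passed as higher in compound mutants against control, and 0.0235% and 0% passed in the other comparisons. In compound mutants against control 18 of the 20 log2 differences were above 0, where 46.4% of all genes were. That share was not computed for genes of higher signal alone. The list's median was 1.22, beside -0.16 over all genes and 0.39 over the 13514 with a signal of at least 5 in 2 libraries. The smallest p-values were those of smpd1, acid sphingomyelinase (3.52, limma adjusted p of 0.0589), asah1b, an acid ceramidase (1.98, 0.0803), laptm4a (2.07, 0.0921) and gusb, beta-glucuronidase (1.69, 0.100). Regulators of lysosome formation had 0 of 12 past the test and a median of 0.22. By p-value mcoln1b and mcoln1a, lysosomal ion channels, led at -1.55 and 1.45 (limma adjusted p of 0.114 and 0.160). They were followed by flcn (1.43, 0.252) and mitfa (0.92, 0.427). The signal of mcoln1b was near the floor, at most 3.09 in any library and 0 in both compound mutant libraries. For tfeb, a main activator of lysosomal genes and named after its value was seen, the difference was -0.21 (limma adjusted p of 0.821).

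**Figure D5:**
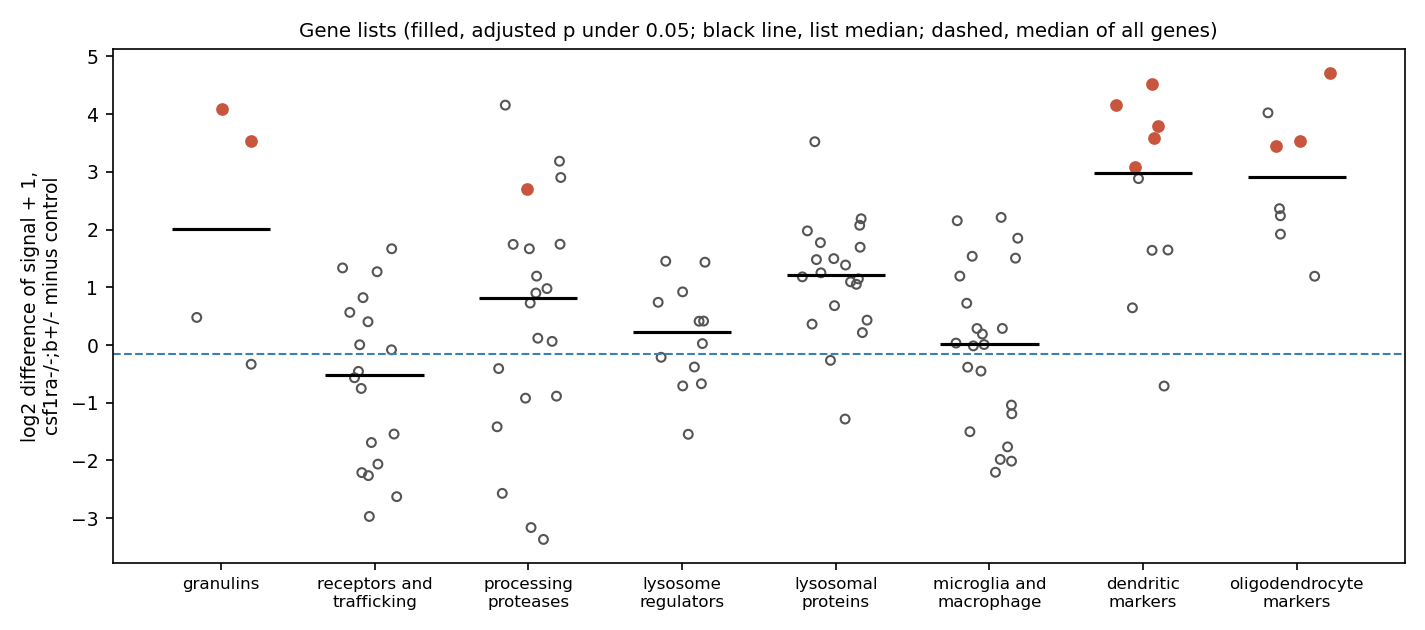
Log2 difference of signal + 1 in compound mutants against control for each tested member of 8 gene lists, filled where the adjusted p was under 0.05, with a black line at the median of each list and a dashed line at the median of all genes (-0.16). The filled points are grn1 and grn2, the cathepsin gene ctss2.1, 5 of 10 dendritic markers and 3 of 8 oligodendrocyte markers. Among these, the rises of ccl19a.1, mpz, plp1b and cldnk were known when the marker lists were drawn up.

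Some markers of other cells rose in compound mutants against control, the comparison in which the short granulins did. These lists were drawn up with the rises of ccl19a.1, mpz, plp1b, cldnk and glulb already known. For these genes passing was fixed beforehand, and the share of all genes that passed is no background for them. Of 10 genes listed as markers of dendritic-like cells, 5 rose in compound mutants against control (hepacam2, siglec15l, id2a, ccl19a.1 and batf3) and 0 fell. With ccl19a.1 among them, this count cannot be weighed against the 0.793% of all genes that passed as higher. The list's median log2 difference, which also takes in ccl19a.1, was 2.98, and that of all genes was -0.16. Of the 5 that rose, hepacam2 and id2a are also among the genes most like grn1. The list's summed signal was 19200 and 40700 among controls, 28300 and 23900 in csf1ra-/- fish and 51300 and 76600 in the compound mutants, mostly from cd74a and cd74b, and none of the 10 was at 0 in any library. Its batf3, a transcription factor of dendritic cells in mammals, had a signal of 9.93 and 27.4 in control cells, 55.0 and 72.5 in those of csf1ra-/- fish and 155 and 289 in those of compound mutants. In compound mutants against control 9 of the 10 were above 0 and 1, zbtb46, was below. Its signal was 31.4 and 34.8 in control cells, 33.3 and 22.9 in those of csf1ra-/- fish and 20.8 and 18.9 in those of compound mutants (-0.71, limma adjusted p of 0.451). The part of these cells in the values of grn1 and grn2 was not tested.

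Of 8 oligodendrocyte markers, 3 rose (mpz, cldnk and plp1b) and 0 fell in compound mutants against control. The rises of these 3 were known when the list was drawn up, so their count cannot be weighed against the 0.793% of all genes. The summed signal of the 8 was 321 and 382 among controls, 369 and 252 in csf1ra-/- fish and 2710 and 4340 in the compound mutants. This sum did not separate csf1ra-/- from control. Of its 8 members, 1 was separated upward in that comparison, where 18.6% of all genes were, and 3 downward. The downward share of all genes was not computed there. The 1 upward was mbpb, at 23.3 and 36.7 in control, 94.2 and 91 in csf1ra-/- fish and 174 and 115 in compound mutants. Among 8 radial glia markers 1 rose, glulb, whose rise was known beforehand. Among 7 neuron markers 1 rose, stmn1b, where 0.793% of all genes passed as higher. This gene is also among those most like grn2, and 5 of the 7 neuron markers were below 0. Of 11 markers of epithelium and metaphocytes, macrophage-like cells of skin and gut that carry mpeg1 reporters, 0 passed, and their sum was 93.7 and 88.9 in control cells, 349 and 349 in those of csf1ra-/- fish and 214 and 155 in those of compound mutants. Most of the sum in mutants came from krt8, at 151 and 160 in csf1ra-/- fish, and icn, at 178 and 143. In compound mutants against control 4 of the 11 were above 0 and 6 below, with a median of -0.30. The list's claudin gene cldnh was at 0 in compound mutant replicate 1 and at its highest, 15.2, in compound mutant replicate 2. In the other 4 libraries cldnh ran from 0.702 to 1.5. No neutrophil, lymphocyte or vessel marker passed, of 7, 8 and 6 tested. With 0.793% of all genes passing as higher, a count of 0 in lists this short tells little about them. The neutrophil markers summed to 96.6 and 181 in control cells, 264 and 207 in those of csf1ra-/- fish and 179 and 351 in those of compound mutants, with 3 of 7 log2 differences above 0 in compound mutants against control. Among the neutrophil markers the enzyme gene mpx was at 0 in both compound mutant libraries. There srgn, abcb9 and npsn lay higher than in both controls, as did 25.3% of all genes. The part of these cells in the granulin values was not tested.

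Of 22 microglia and macrophage markers 0 passed in any comparison. Of all genes tested, 0.793% passed as higher in compound mutants against control, 0.0235% passed between the mutants and 0% in csf1ra-/- against control. In compound mutants against control 12 of the 22 were above and 10 below 0, with a median of 0.02. The smallest p-values were those of csf1rb at -2.21 (limma adjusted p of 0.0725), cyba, a subunit of the phagocyte oxidase, at 2.15 (0.0741), lcp1, an actin-bundling protein of leukocytes, at 2.21 (0.0751), and spi1b, a transcription factor of myeloid cells, at 1.85 (0.0828). Named after its value was seen, apoeb, an apolipoprotein gene of zebrafish microglia, stood at 0.03 (0.980). Other genes of the list lay lower, such as apoc1 at -2.013, ccl34b.1 at -1.765 and havcr1 at -1.502 (limma adjusted p of 0.0951, 0.115 and 0.140). With 12 above and 10 below 0, the median near 0 covers shifts in both directions and does not show an unchanged profile. The depth of the compound mutant libraries, 15011963 and 13543998 reads, was the greatest of the 3 groups, and the number of genes with reads was the lowest there, at 18383 and 18047 against 21452 and 20723 in control. The part of depth in the granulin values was not tested.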

How the data were processed

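RNA from sorted mpeg1-GFP brain cells was turned into cDNA with a low-input kit and sequenced as single reads of 50 nucleotides, per the labels' protocols. HISAT2, edgeR and GRCz10 appear in the submitters' processing notes, while versions and counting settings are not stated there. The authors deposited 1 table. Its CPM columns hold signal, which the authors made by dividing reads by a rescaled library size, judging by the values. All values (100%) were whole multiples of their library's smallest value within 0.001, which gave back whole reads. Its log2 fold changes and its false discovery rates, a kind of p-value, are those deposited by the authors. Another 19 columns of values were not used.

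The test was limma 3.58.1 in R 4.3.3 with an intensity trend on log2(signal + 1). It took in genes that reached a signal of 1 in 2 or more libraries, 21316 in all. One fit of 3 group means covered the 6 libraries, with Benjamini-Hochberg adjustment over those genes and a threshold of 0.05. Alternatives were edgeR 4.0.16 and DESeq2 1.42.0 on the recovered read counts, other pseudocounts, filters and scaling, a block and each library left out, with the filter applied again. The tests were tested on simulated data. The members, gene lists and test were chosen with earlier results of these data known. Named genes are the members, the 5 genes most like each, and from each pathway list those that passed or else up to 4 with the smallest p in compound mutants against control. Genes outside this rule (reference genes, chromosomal neighbors, main progranulin partners and single cell markers) were named after their values were seen.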

Additional observations from a re-analysis of the deposited data

How the results depend on the processing

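The log2 differences of grn1 and grn2 kept their direction in all 14 alternatives of each comparison. In compound mutants against control, grn2 lost its call at a pseudocount of 0.25 (3.63, limma adjusted p of 0.0503) and on total reads (2.85, 0.0522). DESeq2 called grn1 in csf1ra-/- against control (2.00) and grn1 and grn2 in compound mutants against csf1ra-/- (1.94 and 2.29). With signal scaled to total reads, the all-gene median in compound mutants against control moved from -0.16 to -0.70, and grnb turned to -0.21, as did grna to -0.12 in csf1ra-/- against control. With a signal of at least 5 in 2 libraries required, that median moved the other way, to 0.39. With 1 library left out, the differences in compound mutants against control ran from 3.68 to 4.50 for grn1, 3.10 to 3.96 for grn2, -0.92 to 0.25 for grna and -0.19 to 1.15 for grnb. In csf1ra-/- against control they ran from 1.89 to 2.39, 0.93 to 1.57, -0.033 to 0.85 and -0.26 to 0.22 in the same order. In compound mutants against csf1ra-/- they ran from 1.54 to 2.36, 1.85 to 2.70, -1.33 to -0.16 and -0.17 to 1.16. A group left with 1 library is assumed to vary like the others. A fit with 1 library left out also has fewer degrees of freedom. For the calls lost and gained the cause was not tested.

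The number of genes past the threshold in compound mutants against control was 234 (169 higher and 65 lower), and on total reads 218 (92 higher and 126 lower). It was 108 at a pseudocount of 0.25, 884 with a signal of at least 5, 357 by edgeR, 3618 by DESeq2, and 0 to 117 with 1 library left out. In csf1ra-/- against control it was 0, and 2 at a pseudocount of 4, 13 with a signal of at least 5, 8 by edgeR, 259 by DESeq2, 5 on total reads, and 0 to 6 with 1 library left out. In compound mutants against csf1ra-/- it was 5, and 3 at a pseudocount of 0.25, 48 with a signal of at least 5, 18 by edgeR, 1459 by DESeq2, 25 on total reads, and 0 to 5 with 1 library left out. With the title number as a replicate block the counts were 543, 12 and 36, and the adjusted p of grn1 and grn2 in compound mutants against control 0.00360 and 0.0196. Deviations of same-numbered libraries correlated at 0.006 to 0.018 across genes, which cannot show whether these libraries share a batch. The titles give them a shared number only, and no pairing was assumed in the main fit. Whether they share a batch was not tested.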
